A study of Mus musculus with 4 samples.

Results

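Telomerase adds telomere repeats to chromosome ends, and its genes are described here in cultured mouse embryonic fibroblasts with and without its RNA. The 10 genes were chosen by name from the 23235 symbols of the deposited tables, and all 10 were found under their current symbols. They are Tert, Terc, Dkc1, Nop10, Nhp2, Gar1, Naf1, Wrap53, Ruvbl1 and Ruvbl2. Poly(A)-selected RNA of primary embryo fibroblasts on the C57BL/6 strain was sequenced in 4 libraries, 1 per genotype. The labels give these as wild type, Gadd45-/- (named Gadd45a-/- in the series' design text), G3 Terc-/- (the third generation bred without the telomerase RNA gene) and G3 Gadd45-/-Terc-/- (dKO). The deletions are carried by the whole embryo, and how many embryos gave each culture is not given in the sources used here. Each comparison is between single cultures, so it has no replicate check and no test.

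Telomerase is a ribonucleoprotein. Its reverse transcriptase, TERT, copies a short template within the RNA TERC onto the chromosome end, and in most differentiated cells little TERT is made. TERC ends in an H/ACA fold, the fold of the RNAs that guide pseudouridylation of ribosomal RNA, and it is stabilised by the same proteins: dyskerin (Dkc1), NOP10, NHP2 and GAR1. NAF1 takes the place of GAR1 during assembly, the ATPases pontin (Ruvbl1) and reptin (Ruvbl2) help to assemble the particle, and TCAB1 (Wrap53) carries the RNA to Cajal bodies. Most H/ACA protein in a cell serves ribosomal and spliceosomal RNA rather than telomerase.

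The G3 genotypes are labelled as lacking the gene of this RNA, template included. The first 90 bases of the GENCODE M21 transcript of Terc, which lies on chromosome 3, are shown with capitals marking the longest stretch complementary to repeats of TTAGGG, the telomere sequence.
Terc: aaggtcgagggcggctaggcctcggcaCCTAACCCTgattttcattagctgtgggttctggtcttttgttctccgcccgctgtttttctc
The stretch has 9 bases, CCTAACCCT, at positions 28 to 36 counted from the transcript's first base. The RefSeq model of Terc, 397 nt long, starts 26 bases later than the 423 nt GENCODE transcript, which places the stretch at its positions 2 to 10.

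Values are FPKM as deposited, fragments scaled to transcript length and to the mapped fragments of the library, so levels of different genes can be compared per length. Depth, estimated from the steps between low values, was 19500000 to 19900000 fragments per library. Intervals below are 95% counting intervals from fragments estimated with it. They cover counting error only, since fragments are not independent molecules after amplification, and they say nothing of the spread between cultures. A difference is the difference of log2(FPKM + 1), and it passed the size rule at 1 or more in size, a 2-fold difference of FPKM + 1. Genes with a mean of 1 FPKM or more over the 4 libraries numbered 11587 and form the background. Of the 10 telomerase genes 9 had such a mean, and Terc did not.

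The labels were checked first. Wild type held 22.9 FPKM of Gadd45a, the library labelled Gadd45a-/- 33.9, the library labelled G3 Terc-/- 31.4 and the library labelled G3 dKO 45.1, so its transcript was not lower where the label says that the gene is absent. The exons behind these fragments cannot be seen in 1 value per gene, and the labels are kept as names of the libraries. The library labelled Gadd45a-/- held Y-linked transcripts (Ddx3y at 16.4 FPKM) and little Xist (0.15 FPKM), while Xist stood at 24.0 to 34.1 FPKM in the other libraries, so sex and genotype cannot be told apart in comparisons with it. The fibroblast markers, among them Col1a1 and Vim, were all above 1 FPKM, with a summed level of 6685 FPKM in the library labelled G3 Terc-/- and 11522 to 12202 FPKM in the others. Of the 8 fibroblast markers 6 were lower in the library labelled G3 Terc-/- than in wild type, while Fn1 and Pdgfra were higher. None of 8 pluripotent and germ cell markers reached 1 FPKM in any library (summed level 0.39 to 1.00 FPKM), and Pou5f1 was listed at 0 in all libraries but the one labelled G3 Terc-/-, where it stood at 0.13 FPKM. None of 5 lymphocyte, 5 endothelial or 5 erythroid markers reached 1 FPKM either. The summed level of 5 macrophage markers was 4.27 to 5.54 FPKM and, in the library labelled G3 dKO, 15.5 FPKM, of which Lyz2 made up 11.5 FPKM. The summed level of 6 muscle markers in FPKM was 24.1 for wild type and 13.3 for the library labelled Gadd45a-/-, against 0.84 FPKM in the library labelled G3 Terc-/- and 2.41 FPKM in the library labelled G3 dKO. Tnnt2 carried most of it (23.2, 13.2, 0.78 and 2.05 FPKM in that order). Both its G3 levels lay under both others, as in the telomerase genes below other than Tert and Terc. How common such a split was among all genes was not counted. Summed levels in that order were 9.22, 2.73, 1.67 and 1.89 FPKM for 6 epithelial markers and 56.3, 56.5, 44.8 and 102.6 FPKM for 6 neural markers. Tubb3 (38.7, 36.3, 26.1 and 77.0 FPKM) and Nes (15.7, 17.8, 18.6 and 25.1 FPKM) carried most of the neural sum. The neural markers Mtap2 and Sox2 were lower in the library labelled G3 dKO than in wild type (0.49 against 1.34 FPKM and 0.02 against 0.52 FPKM). The part of these cell types in the results was not tested. In bulk RNA, fewer cells of a type and less RNA per cell cannot be told apart.

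Terc, the RNA subunit, was listed for wild type at 0.53 FPKM, for the library labelled Gadd45a-/- at 0.26 FPKM and for both G3 libraries at 0. For a gene of 397 nt, with a fragment length of 200 nt taken off, 1 fragment is worth 0.26 FPKM, so the values above 0 correspond to 2 fragments and 1 fragment. The floor of 3 fragments lies at 0.76 to 0.78 FPKM. All 4 values were under it. The presence of Terc RNA in the Terc-proficient libraries and its absence in the G3 libraries were therefore not detectable in these poly(A)-selected libraries. Whether the selection or the depth set this limit was not tested.

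Tert, the catalytic subunit, was the scarcest of the 9 genes and the 1 gene among them with a higher level in both G3 libraries. Wild type held 1.21 FPKM (counting interval 0.98 to 1.48), the library labelled Gadd45a-/- 1.12 FPKM (0.90 to 1.38), the library labelled G3 Terc-/- 2.23 FPKM (1.92 to 2.58) and the library labelled G3 dKO 2.01 FPKM (1.71 to 2.33). These levels correspond to about 97, 92, 181 and 164 fragments on a transcript of 4313 nt. The levels of the G3 libraries lay above those of the Terc-proficient libraries with no overlap of the counting intervals, while within each pair the intervals overlapped. Per length, the library labelled G3 Terc-/- held 1.85-fold as much Tert as wild type (counting interval 1.43 to 2.39), and the library labelled G3 dKO 1.79-fold as much as the library labelled Gadd45a-/- (1.37 to 2.33).

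On the log2 scale these differences of Tert were 0.55 and 0.51, below the size rule. Their size depended on the processing: the first was 0.30 with quantile normalization and 0.84 with a pseudocount of 0.1 FPKM, and the second was 0.79 with that pseudocount. Of the background genes 20.1% had a difference as high as 0.55 or higher in the first comparison, and 10.4% a difference as high as 0.51 or higher in the second. The gene thus stood in the upper part of the background in both, among many other genes. Of the background genes 5.77% had a lower level than Tert in wild type and 10.6% in the library labelled G3 Terc-/-.

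Dkc1 encodes dyskerin, the pseudouridine synthase of the H/ACA particle. Wild type held 17.0 FPKM of it, the library labelled Gadd45a-/- 17.3 FPKM, the library labelled G3 Terc-/- 6.14 FPKM and the library labelled G3 dKO 8.14 FPKM. Both G3 levels were lower than both others, and the level labelled G3 Terc-/- was the lowest. It was 2.77-fold lower than in wild type, with a ratio of 0.36 (counting interval 0.32 to 0.41) and a log2 difference of -1.34. As low a difference or lower was found for 3.31% of the background genes. Dkc1 lies on the X chromosome, and the library labelled Gadd45a-/-, which held Y-linked transcripts, and the wild type library differed by 0.02 on the log2 scale. Sex and genotype cannot be told apart in that difference, so it says nothing of either alone.

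Nhp2 encodes an RNA-binding protein of the same particle. Its level was 72.2 FPKM for wild type, 83.3 FPKM for the library labelled Gadd45a-/-, 33.3 FPKM for the library labelled G3 Terc-/- and 53.3 FPKM for the library labelled G3 dKO. The order of the libraries was that of Dkc1, with a wider gap between the G3 libraries. The level labelled G3 Terc-/- was 2.17-fold lower than that of wild type, a difference of -1.10, and the level labelled G3 dKO was 1.60-fold higher than that labelled G3 Terc-/- (counting interval 1.44 to 1.79), a difference of 0.66.

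Gar1, which encodes the protein that completes the mature particle, had levels of 27.4, 29.4, 14.6 and 18.1 FPKM for wild type and for the libraries labelled Gadd45a-/-, G3 Terc-/- and G3 dKO. Nop10, which encodes a small protein bound to dyskerin, had levels of 66.5, 60.3, 44.4 and 52.6 FPKM in that order. Both were lowest in the library labelled G3 Terc-/-, and no G3 level reached a Terc-proficient level. Their differences between that library and wild type, -0.86 for Gar1 and -0.57 for Nop10, did not pass the size rule. The 4 genes of the core particle thus differed from wild type in the same direction but by unequal amounts, 2.77-fold for Dkc1 against 1.50-fold for Nop10. Ruvbl1, Ruvbl2, Naf1 and Wrap53, given below, also had both G3 levels under both Terc-proficient levels. A split of G3 from Terc-proficient levels thus does not set the core genes and Tert apart from the other telomerase genes. Its share of the background genes was not counted.

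**Figure D1:**
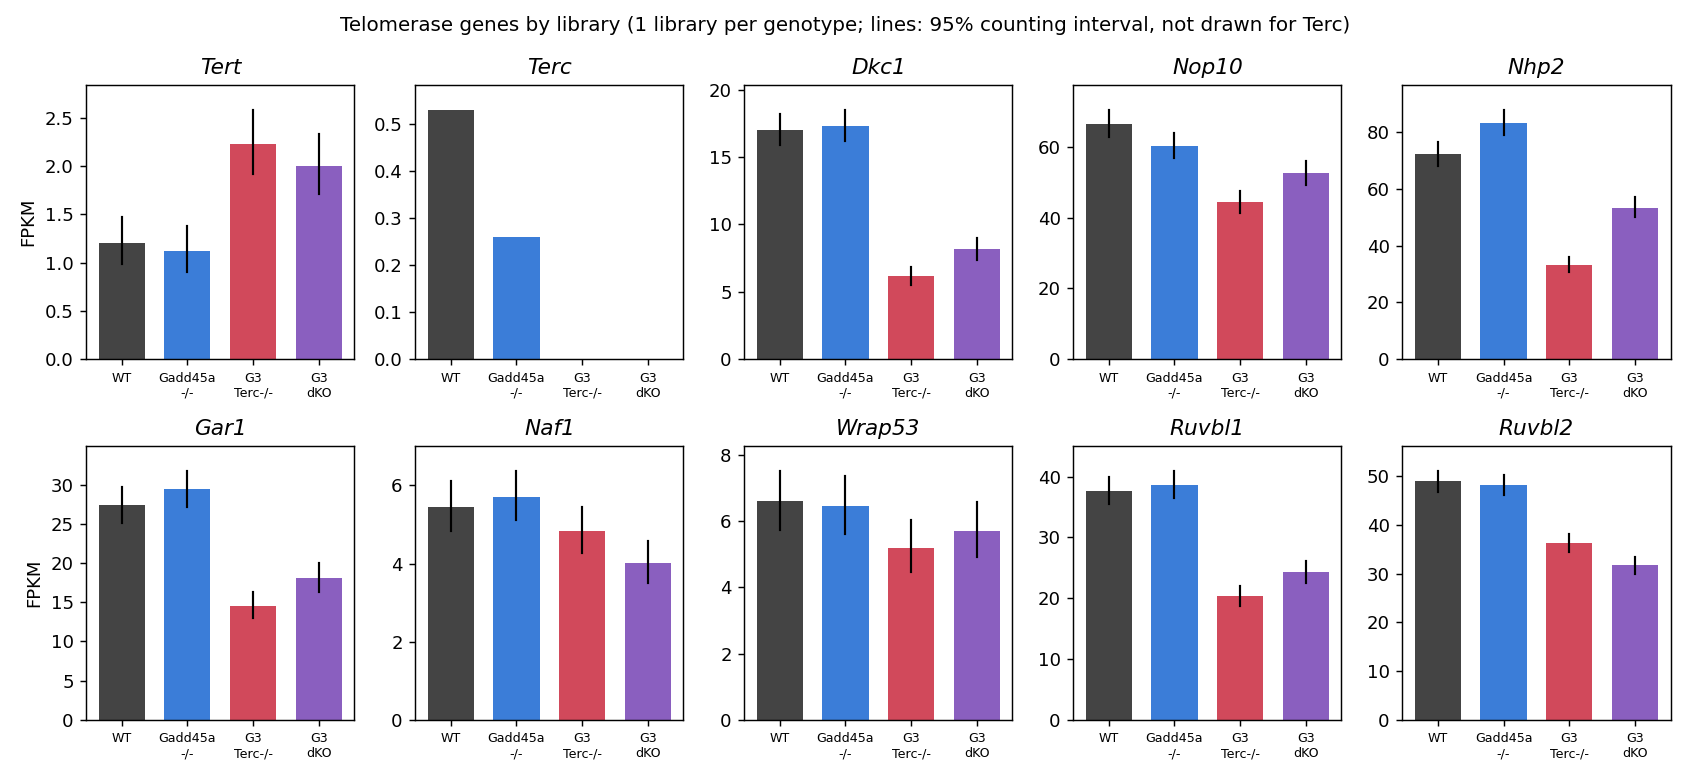
FPKM of each of the 10 genes (vertical axes, from 0, each with its own scale) in the 4 libraries (horizontal axes), with lines for the 95% counting interval. Tert is higher in both G3 libraries (2.23 and 2.01 FPKM against 1.21 and 1.12), the core genes Dkc1, Nhp2, Gar1 and Nop10 are lower there, and the 4 values of Terc stand for at most 2 fragments.

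None of the assembly factors passed the size rule in any comparison. Wild type held 37.7 FPKM of Ruvbl1, the library labelled Gadd45a-/- 38.7 FPKM, the library labelled G3 Terc-/- 20.3 FPKM and the library labelled G3 dKO 24.3 FPKM, which is close to the pattern of Gar1. Ruvbl2, its partner in a shared hexameric ring, had levels of 48.9, 48.2, 36.2 and 31.7 FPKM in that order. Its lowest level was that of the library labelled G3 dKO, so the partners did not follow the same order within the G3 libraries. The level of Ruvbl2 was 1.30-fold that of Ruvbl1 in wild type and 1.78-fold in the library labelled G3 Terc-/-. Ruvbl2 is uncertain, since its GENCODE model overlaps Gys1 on the opposite strand over 3253 bases, and Gys1 had 21.9 FPKM for wild type against 41.1 FPKM for the library labelled G3 Terc-/-.

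Naf1 had levels of 5.44, 5.71, 4.84 and 4.01 FPKM for wild type and for the libraries labelled Gadd45a-/-, G3 Terc-/- and G3 dKO, and was lowest in the library labelled G3 dKO. Its ratio between the library labelled G3 Terc-/- and wild type was 0.89, with a counting interval of 0.75 to 1.05 that includes no difference. Between the library labelled G3 dKO and that labelled Gadd45a-/- the ratio of Naf1 was 0.70 (0.59 to 0.84), a difference of -0.42, and the interval excludes 1. Wrap53 stood at 6.60, 6.45, 5.18 and 5.69 FPKM, a ratio of 0.79 (0.64 to 0.97) between the library labelled G3 Terc-/- and wild type. The highest and the lowest level differed 1.42-fold for Naf1 and 1.27-fold for Wrap53. Wrap53 starts 103 bases from Trp53 on the opposite strand with no overlap in GENCODE, and Trp53 stood at 85.5, 78.4, 65.8 and 59.4 FPKM. Dkc1 and Nhp2 overlap a neighbour on the opposite strand only at their ends, by 45 bases (Mpp1) and 44 bases (Rmnd5b). Mpp1 was higher in the library labelled G3 Terc-/- (91.6 FPKM against 30.2 FPKM in wild type), while Rmnd5b stood at 14.7 and 15.0 FPKM.

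Between the library labelled G3 Terc-/- and wild type, 2 of the 9 genes were lower by the size rule (Dkc1 and Nhp2) and none higher, against 6.23% of the background genes lower and 9.93% higher. Their median difference was -0.57, beside 0.01 for the background genes, and 8 of 9 differences were negative. Between the library labelled G3 dKO and the library labelled Gadd45a-/-, 1 of 9 was lower (Dkc1, at a difference of -1.004, just inside the rule) and none higher, against 2.34% lower and 2.49% higher in the background. The median difference was -0.59, beside -0.01, and again 8 of 9 were negative, with Tert the exception in both. Between the library labelled G3 dKO and wild type none of 9 passed, against 2.84% lower and 3.81% higher in the background, and Dkc1, at -0.98, lay just outside the rule.

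Between the library labelled Gadd45a-/- and wild type none of the 9 genes passed the rule, against 0.319% of the background genes higher and 0.19% lower. All 9 differences lay between -0.14 (Nop10) and 0.20 (Nhp2). Between the G3 libraries none passed either, against 1.51% higher and 4.78% lower. Here 6 of 9 were higher in the library labelled G3 dKO, with a median of 0.24 beside -0.03 for the background genes. The 4 core genes were all higher, from 0.24 for Nop10 to 0.66 for Nhp2, and 4.73% of the background genes had a difference as high as that of Nhp2 or higher. Naf1 (-0.22) and Ruvbl2 (-0.19) were lower, as was Tert (-0.11), which turned to 0.04 with quantile normalization. The comparisons share libraries, so a low value in the library labelled G3 Terc-/- enters both the comparison with wild type and that between the G3 libraries.

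**Figure D2:**
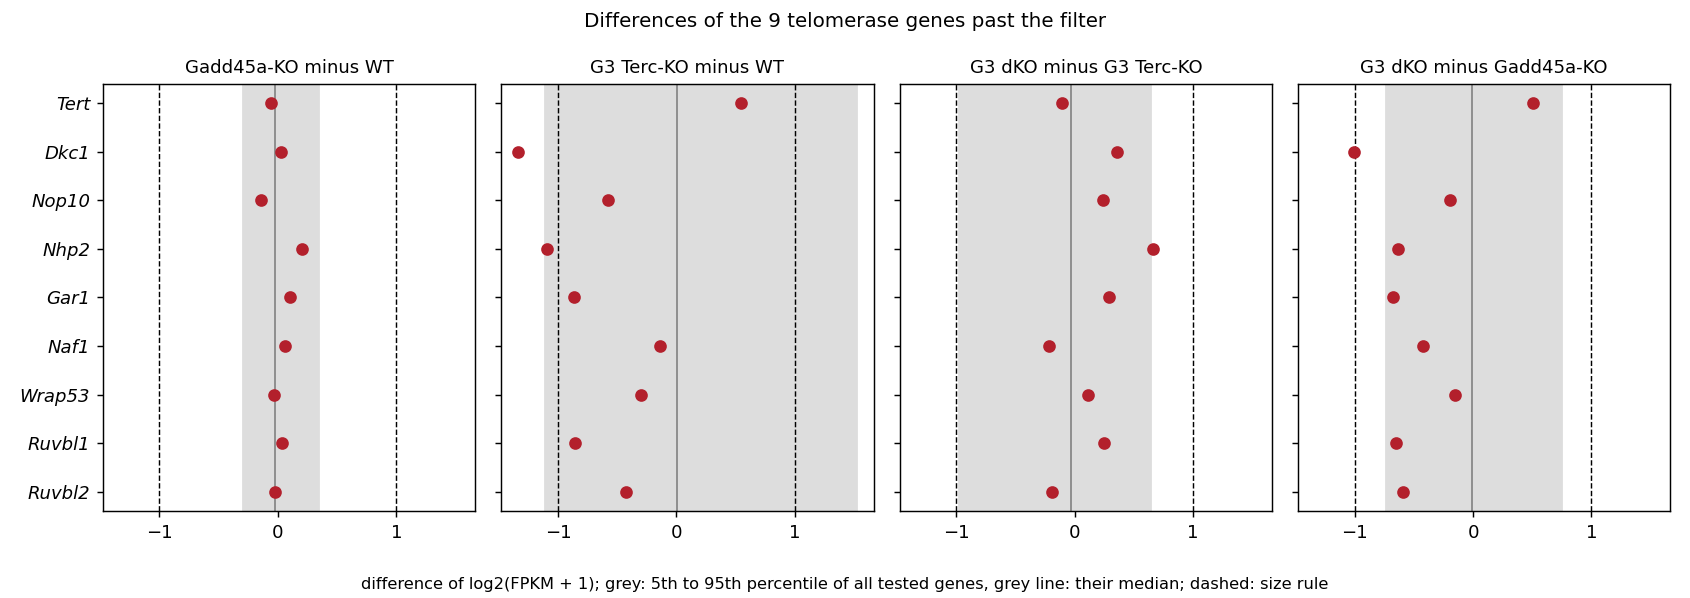
Differences of log2(FPKM + 1) (horizontal axes) of the 9 genes past the filter (rows) in 4 comparisons of single libraries, with the 5th to 95th percentile of all tested genes in grey and the size rule as dashed lines. Dkc1 lies left of the grey range in the comparison of G3 Terc-/- with wild type (-1.34) and of G3 dKO with Gadd45a-/- (-1.004), and Tert lies right of the median in both (0.55 and 0.51).

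The order of levels was led in each library by Nhp2 and Nop10, except that in the library labelled G3 Terc-/- Nop10 (44.4 FPKM) and Ruvbl2 (36.2 FPKM) stood above Nhp2 (33.3 FPKM). The levels of Nop10 and Nhp2 in the library labelled G3 dKO, 52.6 and 53.3 FPKM, had overlapping counting intervals, as had those of Naf1 and Wrap53 in the library labelled G3 Terc-/-, 4.84 and 5.18 FPKM. Dkc1 was the scarcest transcript of the core particle in all 4 libraries. Relative to Dkc1 in the same library, Nop10 stood at 3.91 in wild type and 7.23 in the library labelled G3 Terc-/-, Gar1 at 1.61 and 2.37, and Nhp2 at 4.24 and 5.41. Dkc1 had the largest fall of the genes past the filter, so every ratio to it is higher in that library. The levels of Nop10, Gar1 and Nhp2 themselves were lower there. Tert had 0.071 of the Dkc1 level in wild type, and 0.065, 0.36 and 0.25 of it in the libraries labelled Gadd45a-/-, G3 Terc-/- and G3 dKO. The ratio of Gar1 to Naf1, the late and the early protein of the same position in the particle, was 5.03, 5.15, 3.01 and 4.51 in that order of libraries. It was lowest in the library labelled G3 Terc-/-, where Gar1 was low and Naf1 was at 4.84 FPKM against 5.44 FPKM in wild type.

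**Figure D3:**
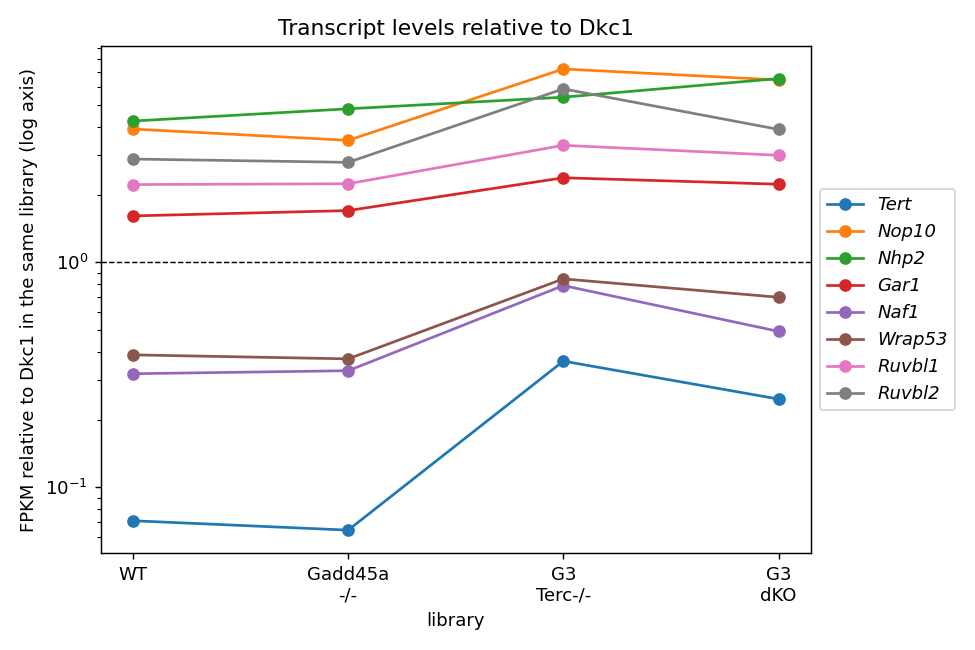
FPKM of each gene divided by that of Dkc1 in the same library (vertical axis, log scale) for the 4 libraries (horizontal axis). Tert stands at 0.071 in wild type and 0.36 in the library labelled G3 Terc-/-, and all 8 genes shown stand higher relative to Dkc1 in that library than in wild type. The rise of all 8 follows from the choice of Dkc1, which had the largest fall of the genes past the filter.

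Lists of other genes, some of them outside telomerase, put these values in context. The box C/D proteins form the sister class of small nucleolar particles, which guide ribose methylation and use the same assembly factors. Of 5 such genes 4 were lower by the size rule in the library labelled G3 Terc-/- than in wild type, with a median of -1.19, against 6.23% of the background genes lower. Wild type held 80.3 FPKM of Nop56 and that library 26.1 FPKM. In the same libraries Nop58 was at 72.2 and 28.5 FPKM, the methyltransferase gene fibrillarin (Fbl) at 155 and 67.6 FPKM and Rrp9 at 40.0 and 17.0 FPKM. The fifth, Nhp2l1, did not pass, as Gar1 and Nop10 did not among the 4 H/ACA core genes. Nolc1, whose nucleolar phosphoprotein binds both classes, was the lower 1 of 6 other H/ACA partners, at 38.3 and 17.0 FPKM.

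Another list held 13 genes of the R2TP complex, of HSP90 and of other assembly factors that work with them. None of the 13 and none of 8 subunits of the chaperonin TRiC, which folds TCAB1, passed the rule. The background share was 6.23% lower. The medians of these 2 lists, -0.51 and -0.52, are close to that of the 9 telomerase genes, -0.57. Pih1d1, a subunit of R2TP, was at 39.1 FPKM in wild type against 22.7 FPKM in the library labelled G3 Terc-/-, and Telo2, of the TTT complex that works with R2TP, at 6.83 and 3.45 FPKM. The chaperonin subunits Cct5 and Tcp1 stood at 211 and 134 FPKM and at 140 and 92.3 FPKM. All 8 subunits of TRiC had a negative difference.

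Among 18 genes that trim, tail or cap the Terc RNA 2 were lower (11.1%, against 6.23% of the background genes), with a median of -0.35. Toe1, a deadenylase, was at 12.2 FPKM in wild type against 3.76 FPKM in the library labelled G3 Terc-/-, and the exosome nuclease gene Dis3 at 14.3 and 4.70 FPKM. Of 10 genes for recruitment to the telomere and for the CST complex 3 were lower, with a median of -0.27. These were Hnrnpa1 (50.1 and 12.5 FPKM) and Hnrnpa2b1 (335 and 157 FPKM), which encode RNA-binding proteins, and the helicase gene Rtel1 (7.34 and 2.89 FPKM). Hnrnpa1 has many processed copies, so its value is uncertain. Of 13 partners and inhibitors of the TERT protein 1 was lower (7.69%), the acetyltransferase gene Nat10 (14.4 and 6.09 FPKM), with a median of -0.23. With so few genes, shares this near the background say nothing of the processing genes or the partners as groups. No gene of these lists was higher by the rule.

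Transcription factors reported to act on the Tert gene come next. Of 15 activators measured 1 was higher and 1 lower in the library labelled G3 Terc-/- than in wild type, with 10 differences negative and a median of -0.12. Each is a share of 6.67%, against 9.93% of the background genes higher and 6.23% lower. Hif1a, the hypoxia factor, stood at 44.6 and 202 FPKM and Ets2 at 25.3 and 12.0 FPKM. Between the library labelled G3 dKO and wild type 13 of the 15 activators were negative, with a median of -0.32, 2 lower and 1 higher by the rule. The shares were 13.3% lower and 6.67% higher, against 2.84% and 3.81% of the background genes. Of 12 repressors measured 1 was higher and 1 lower in the library labelled G3 Terc-/- than in wild type, with a median of 0.00, namely Mxi1 (2.89 and 7.96 FPKM) and Mxd3 (16.6 and 6.57 FPKM), which both encode antagonists of MYC. Each is a share of 8.33%. With so few genes, these shares say nothing of the activators or the repressors as groups. Wild type held 44.5 FPKM of Myc itself, the library labelled Gadd45a-/- 36.4 FPKM, the library labelled G3 Terc-/- 31.9 FPKM and the library labelled G3 dKO 14.9 FPKM. It was the 1 activator past the rule between the G3 libraries, at -1.05, where 4.78% of the background genes were lower. The part of these factors in the level of Tert was not tested.

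Proliferation genes lay in the direction of the core genes in both comparisons. All 14 were lower by the rule in the library labelled G3 Terc-/- than in wild type (6.23% of the background genes), with a median of -2.31. In the library labelled G3 dKO 8 of 14 were higher than in that library (1.51% of the background genes), with a median of 1.10. Mki67, the proliferation marker, had levels of 27.9, 24.1, 2.97 and 8.69 FPKM for wild type and for the libraries labelled Gadd45a-/-, G3 Terc-/- and G3 dKO. The order is that of Gar1, Dkc1 and Ruvbl1 within the G3 libraries. The part of proliferation in the levels of these genes was not tested.

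**Figure D4:**
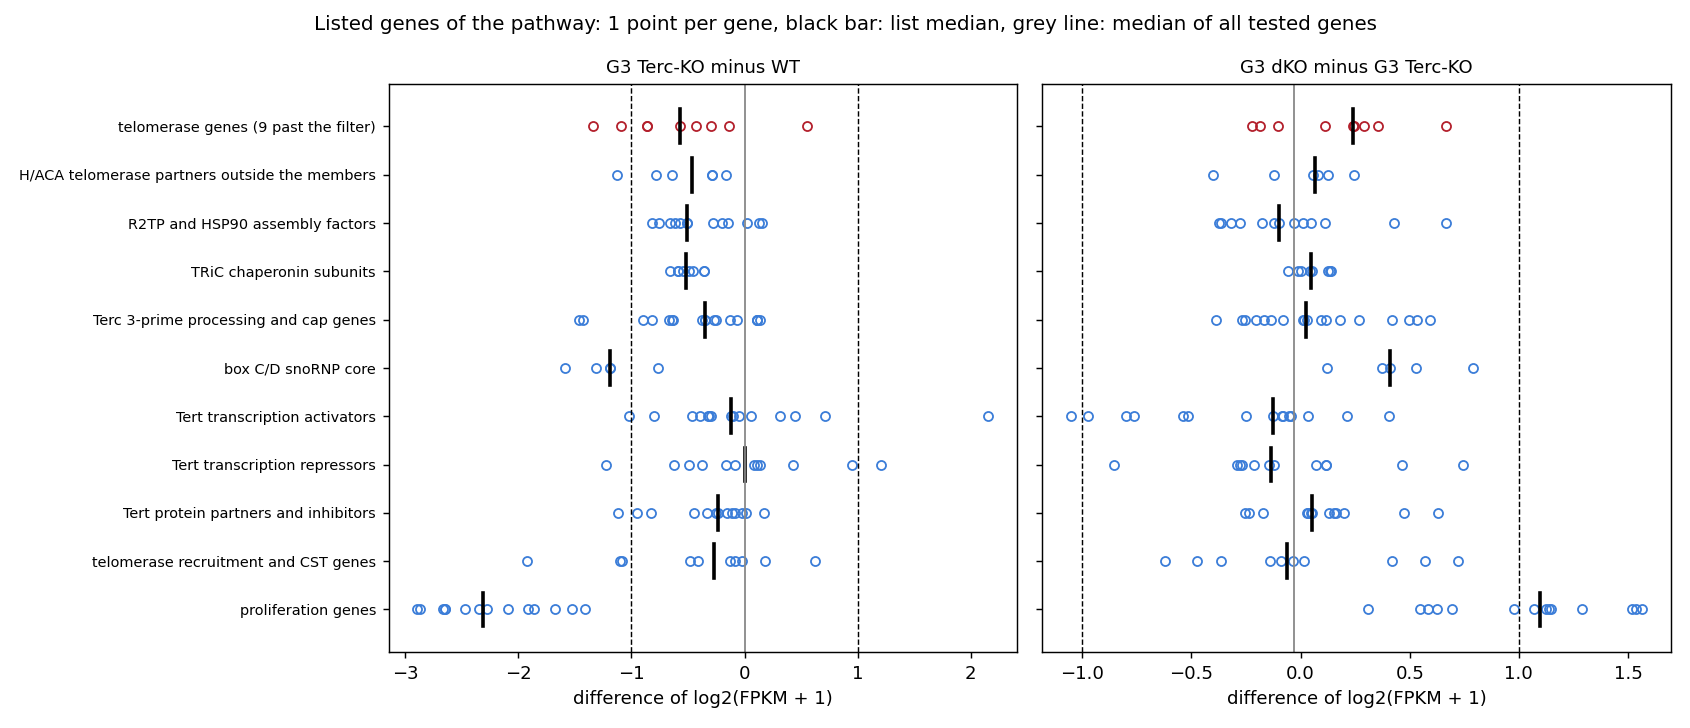
Differences of log2(FPKM + 1) (horizontal axes) for the 9 telomerase genes (red) and the measured genes of 10 lists (blue), 1 point per gene, with list medians as black bars and the size rule as dashed lines. The box C/D core (median -1.19) and the proliferation genes (-2.31) lie furthest left in the comparison of G3 Terc-/- with wild type, and the transcription factor lists have medians of -0.12 and 0.00.

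Genes most like Tert and Dkc1 were sought by the distance between log2(FPKM + 1) values centred over the 4 libraries. The 5 nearest to Tert were Selm, Ogt, Gm15417, Pnpla2 and Arhgef18, at distances of 0.023 to 0.046, and 467 genes lay within 0.2. The 5 nearest to Dkc1 were Il2rg, Ak5, Snhg5, Cenpi and Pkmyt1, at distances of 0.041 to 0.047, and 72 genes lay within 0.2. Among the telomerase genes Nhp2 (0.40), Gar1 (0.41) and Ruvbl1 (0.42) were nearest to Dkc1, and Tert (1.73) was furthest. With 4 libraries many genes share a pattern by this measure, and the distances are a description.

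Promoter sequence was looked at for the gene that was higher and for those past the rule. RefSeq promoters on GRCm38.p6, a later build than that of the files, were matched for 8 of the 10 genes, with 9 windows in all. The 250 bases before the start are given, with capitals for the GC box, GGGCGG on either strand. Tert lies at chr13:73626661-73626910 on the plus strand, Nhp2 at chr11:51619523-51619772 on the plus strand and Dkc1 at chrX:75095604-75095853 on the plus strand.
Tert: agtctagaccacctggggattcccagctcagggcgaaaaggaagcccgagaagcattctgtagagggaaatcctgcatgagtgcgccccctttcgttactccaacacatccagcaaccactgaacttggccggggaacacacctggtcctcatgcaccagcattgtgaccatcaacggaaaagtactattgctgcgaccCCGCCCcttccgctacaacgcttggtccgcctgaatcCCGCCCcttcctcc
Nhp2: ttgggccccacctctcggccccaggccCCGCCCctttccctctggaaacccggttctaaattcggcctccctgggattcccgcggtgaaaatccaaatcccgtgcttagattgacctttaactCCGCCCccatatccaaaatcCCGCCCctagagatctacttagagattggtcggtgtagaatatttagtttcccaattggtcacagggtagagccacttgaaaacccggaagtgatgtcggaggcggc
Dkc1: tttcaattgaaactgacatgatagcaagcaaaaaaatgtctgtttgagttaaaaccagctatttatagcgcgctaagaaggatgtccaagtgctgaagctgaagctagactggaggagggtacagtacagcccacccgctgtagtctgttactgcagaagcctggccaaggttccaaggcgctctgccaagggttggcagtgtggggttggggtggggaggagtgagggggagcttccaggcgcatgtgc
The window of Tert held 2 GC boxes, that of Nhp2 held 3, and that of Dkc1 held none, while 32.7% of 32851 windows of the same length held at least 1. The other motifs searched on both strands, CACGTG (E-box), TTTCCCGC or TTTGGCGC (E2F) and TTTGAA (CHR), were in none of these 3 windows and in 6.02%, 1.30% and 16.0% of all windows. Dkc1 and Nhp2, both past the rule in the same comparison, shared none of the searched letters in these windows, since the window of Dkc1 held none. Shared regulation of these genes was not tested.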

How the data were processed

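The series holds 4 RNA-seq libraries of primary mouse fibroblasts, 1 for each genotype. The authors deposited FPKM, 1 value per symbol and library. TopHat2 2.1.1, Cufflinks 2.2.1 and mm9 are named in the submitters' processing notes, without roles, and which annotation and strand setting were used is not given in the sources used here. Exons and isoforms cannot be seen in FPKM per gene, and values of overlapping genes are uncertain.

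Of 23235 symbols 1 value each was read, and symbols of short RNA were left out. Differences of log2(FPKM + 1) were taken for 5 comparisons (Python 3.11.15, pandas 2.3.3), with no test. A pseudocount of 1 FPKM understates differences of low genes. The procedure was tested on simulated data with large changes in genes of higher level than Tert and no spread between cultures. That setting does not cover small differences, low genes such as Tert or the spread between cultures. Depth came from the steps between values up to 0.05 FPKM of genes with 1 transcript of 1500 to 8000 nt, and 75.5% to 82.8% of these values lay within 0.1 of a whole fragment. Counting intervals are exact (binomial for ratios, Poisson for levels, 95%).

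The members and lists were chosen with earlier results of these data known. There were 10 pathway lists and 9 lists of cell type markers. Genes named from a pathway list are up to 4 with the largest difference past the rule in G3 Terc-/- minus wild type or in G3 dKO minus G3 Terc-/-, or 2 where none passed the first. Alternatives were other pseudocounts, size factors, quantile normalization and no filter on low values.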

Additional observations from a re-analysis of the deposited data

Results flagged for a closer look

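For 3 telomerase genes the library labelled Gadd45-deficient lay on opposite sides of its control with and without Terc. The difference between these differences was not tested, since each is between single libraries. For Nop10 the difference was -0.14 with Terc and 0.24 in G3, 0.38 apart on the log2 scale. For Naf1 it was 0.06 and -0.22, which are -0.28 apart. For Wrap53 it was -0.03 and 0.11, 0.14 apart. The counting intervals of both Wrap53 ratios (0.81 to 1.19 and 0.89 to 1.36) and of the Naf1 ratio with Terc (0.89 to 1.23) include 1, so these directions lie within counting error. Those of both Nop10 ratios (0.83 to 0.99 and 1.08 to 1.30) and of the Naf1 ratio in G3 (0.69 to 0.99) exclude 1. The bounds of 0.99 lie so close to 1 that they depend on the transcript lengths taken for the estimated fragments. All these intervals leave out the spread between cultures. None of these differences passed the size rule, and the label of Gadd45a is not borne out by its transcript level.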

How the results depend on the processing

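The counts of telomerase genes past the size rule were recomputed with pseudocounts of 0.1 and 0.5 FPKM, median-of-ratios size factors, quantile normalization and no filter on low values. The count of 2 between G3 Terc-/- and wild type and the counts of 0 between Gadd45a-/- and wild type and between the G3 libraries were the same in all of them. The count between G3 dKO and Gadd45a-/- went from 1 to 0 with quantile normalization, and that between G3 dKO and wild type went from 0 to 1 with either other pseudocount. Dkc1 accounts for each, since its differences lie next to the rule. No called difference turned its sign. Each single difference of a telomerase gene was also recomputed with the other pseudocounts, size factors and quantile normalization, which gave 200 values. Of these values 187 lay within counting error of the main value and 13 moved beyond it. The sign turned in 2 of the 200 values. They were Tert between the G3 libraries (-0.11 and, with quantile normalization, 0.04) and Ruvbl2 between Gadd45a-/- and wild type (-0.02 and, with size factors, 0.01). No paired analysis was possible because each genotype had 1 library. Terc is limited by its few fragments in these poly(A)-selected libraries, and the lack of replicate cultures limits every value.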
